A study of Mus musculus with 12 samples.

Results

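The metallothioneins Mt1 and Mt2, the metal-sensing transcription factor Mtf1, the exporters Slc30a1 and Slc30a10 and the importer Slc39a14 were followed through 12 mouse liver transcriptomes. These 6 genes, of 55471 gene IDs in the table of counts, were chosen by their roles in zinc handling and with their measured differences between these groups already known. All 6 were among the 13866 genes that passed the filter on low counts. An adjusted p given for one of them therefore says where the gene stood among all genes tested and is no independent support for its pattern.

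The livers came from C57BL/6 mice in 4 groups of 3 samples. Mice on a standard diet (SD) were set beside mice on a diet that produces metabolic dysfunction-associated steatotic liver disease (MASLD), and beside mice on that MASLD diet that also received Aza-TdC at a relative dose of 0.1x or 1x. This drug is a cytidine analogue that depletes the maintenance DNA methyltransferase DNMT1, so the 3 groups on the MASLD diet share the diet and differ in the drug. The comparisons ask how the diet and each dose changed the liver transcriptome. The sources used here give neither age, sex, absolute dose nor the make-up of the diets. They also do not say whether each sample is a separate animal, and part of the spread behind the p-values may therefore be technical.

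Libraries held 30213048 to 41852606 counts. Hepatocyte markers such as Alb and Ttr were present in every library, and their summed level lay between 192589 and 206776 counts after scaling to library size (CPM) in SD livers, between 101913 and 121507 in MASLD livers, between 104640 and 154656 at 0.1x and between 116343 and 138741 at 1x. In whole liver, fewer cells of a type and less RNA per cell cannot be told apart. Part of what set libraries apart followed the GC content and length of genes, called composition below, which is no measure of cell types. This trend also ran with the groups. At Mtf1 it was 0.152, 0.206 and 0.208 (log2) in the MASLD samples and -0.172, -0.376 and -0.168 at 0.1x. At 1x it was 0.245, 0.0229 and 0.136. Removing it can thus also remove a difference between groups, and the trend and the group cannot be told apart. A smooth trend on both took up 31.9% of the variance of log2 deviations in sample 3 at 0.1x, 24.6% in sample 2 at 1x and 17.7% in MASLD sample 5, against 0.331% in SD sample 4, so for named genes, values with this trend removed are given where it changed a call that is reported or moved a called value by over 1.5 times. Summed markers of T, NK and B cells ranged from 8.30 to 269 CPM among SD livers and were at most 17.4 CPM in the other groups.

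Metallothioneins are small cysteine-rich proteins that bind zinc and copper in the cytosol. When free zinc rises, the zinc finger factor MTF1 binds metal response elements and turns on Mt1, Mt2 and Slc30a1, so these genes are widely read as a record of the zinc available to a cell, and in liver the metallothioneins also respond to glucocorticoids and interleukin 6. SLC30 (ZnT) proteins move zinc out of the cytosol and SLC39 (ZIP) proteins move it in. Within these families, SLC30A10 exports manganese and SLC39A14 carries manganese and iron as well as zinc into hepatocytes.

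Mt2 (ENSMUSG00000031762, chr8:94172664-94173568, plus strand) and Mt1 (ENSMUSG00000031765, chr8:94179082-94180327, plus strand) are neighbours on chromosome 8 of the mm10 build. Mtf1 (ENSMUSG00000028890) lies at chr4:124802104-124849800, Slc30a1 (ENSMUSG00000037434) at chr1:191906767-191913247 and Slc30a10 (ENSMUSG00000026614) at chr1:185454848-185468762, all on the plus strand. Slc39a14 (ENSMUSG00000022094) lies at chr14:70303469-70351425 on the minus strand. The stretches before the start sites are shown for the 4 members in which the core of the metal response element was found, because this is the sequence that MTF1 reads. They are the 250 bases before each start in RefSeq's GRCm38.p6 annotation, on the plus strand and 5′ to 3′, with the cores in capitals. The core was searched as TGCACNC or TGCGCNC on both strands, so a core on the other strand reads as its reverse complement.
Mt1, chr8:94178839-94179088: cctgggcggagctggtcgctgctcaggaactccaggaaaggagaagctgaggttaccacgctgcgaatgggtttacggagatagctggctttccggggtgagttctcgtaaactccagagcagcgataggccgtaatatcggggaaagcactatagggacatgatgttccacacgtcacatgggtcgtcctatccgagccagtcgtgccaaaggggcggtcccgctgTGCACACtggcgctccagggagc
Mt2, chr8:94172368-94172617: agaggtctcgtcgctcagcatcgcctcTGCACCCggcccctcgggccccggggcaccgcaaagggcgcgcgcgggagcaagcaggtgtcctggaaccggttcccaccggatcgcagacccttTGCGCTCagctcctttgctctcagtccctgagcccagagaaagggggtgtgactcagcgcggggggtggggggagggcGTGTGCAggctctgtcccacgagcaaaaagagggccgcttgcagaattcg
Slc30a1, chr1:191906531-191906780: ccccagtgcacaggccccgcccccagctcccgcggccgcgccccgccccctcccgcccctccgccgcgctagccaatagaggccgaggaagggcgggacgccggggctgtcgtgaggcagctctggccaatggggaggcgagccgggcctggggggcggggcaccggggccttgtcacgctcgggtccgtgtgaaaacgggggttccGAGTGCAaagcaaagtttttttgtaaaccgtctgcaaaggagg
Slc30a10, chr1:185454598-185454847: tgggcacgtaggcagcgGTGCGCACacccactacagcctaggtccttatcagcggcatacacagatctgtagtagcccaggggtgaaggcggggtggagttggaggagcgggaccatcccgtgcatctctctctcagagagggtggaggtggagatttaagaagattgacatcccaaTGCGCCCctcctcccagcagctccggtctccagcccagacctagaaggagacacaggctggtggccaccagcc
Mt2 and Slc30a10 held 3 cores each, of which 2 in Slc30a10 overlap in a palindrome, and Mt1 and Slc30a1 held 1 each. Mtf1 held 0, and Slc39a14 has no entry in the table used. The Mtf1 stretch, chr4:124802299-124802548, lies inside the gene as located above, since the RefSeq start used comes after that one. Of all 32851 promoters of the same length, 21.4% held at least 1 core and 1.26% held at least 3. With the 50 bases after the start added, a window chosen after seeing the data, Mt1 held 3 cores, Mt2 4, Slc30a1 2, Slc30a10 3 and Mtf1 0. For Mt1, 2 of these cores came with the added bases, so its count depends on the RefSeq start used. Sequence further on was not searched. Of all promoters of 300 bases, 7.11% held at least 2, 1.97% at least 3 and 0.517% at least 4. The cores of Mt2 began 223, 128 and 50 bases before the start, that of Mt1 23 bases before it and that of Slc30a1 43 bases before it. CpG pairs, the sites that DNMT1 maintains, numbered 17 in the Mt1 stretch, 21 in Mt2, 25 in Slc30a1, 22 in Mtf1 and 9 in Slc30a10, against a median of 6 and an upper quartile of 16 over all promoters. A match of letters is a description of the window, and methylation was not measured here.

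Mt1 and Mt2 were high in livers on the standard diet, low on the MASLD diet, low at 0.1x Aza-TdC too and higher again at 1x. Mt1 stood at 62.9, 103 and 154 CPM in the SD samples and at 26.9, 21.2 and 19.8 CPM in the MASLD samples, after scaling of the libraries by the trimmed mean of M values (TMM). At 0.1x it stood at 10.9, 18.0 and 20.7 CPM, and at 1x at 50.9, 48.8 and 91.7 CPM. The SD and 1x samples all lay above the MASLD and 0.1x samples. SD samples ranged widely among themselves, and the 1x samples overlapped with them.

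Mt2, the isoform encoded next to Mt1, gave the same order at lower counts. Its levels were 34.7, 41.5 and 80.1 CPM in SD, 12.2, 9.69 and 7.66 CPM in MASLD, 6.01, 6.25 and 8.81 CPM at 0.1x, and 37.0, 24.1 and 49.5 CPM at 1x. As for Mt1, SD and 1x samples lay above all others, and MASLD and 0.1x samples overlapped. SD sample 5 and 1x sample 5 were the highest of their groups for both genes.

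**Figure D1:**
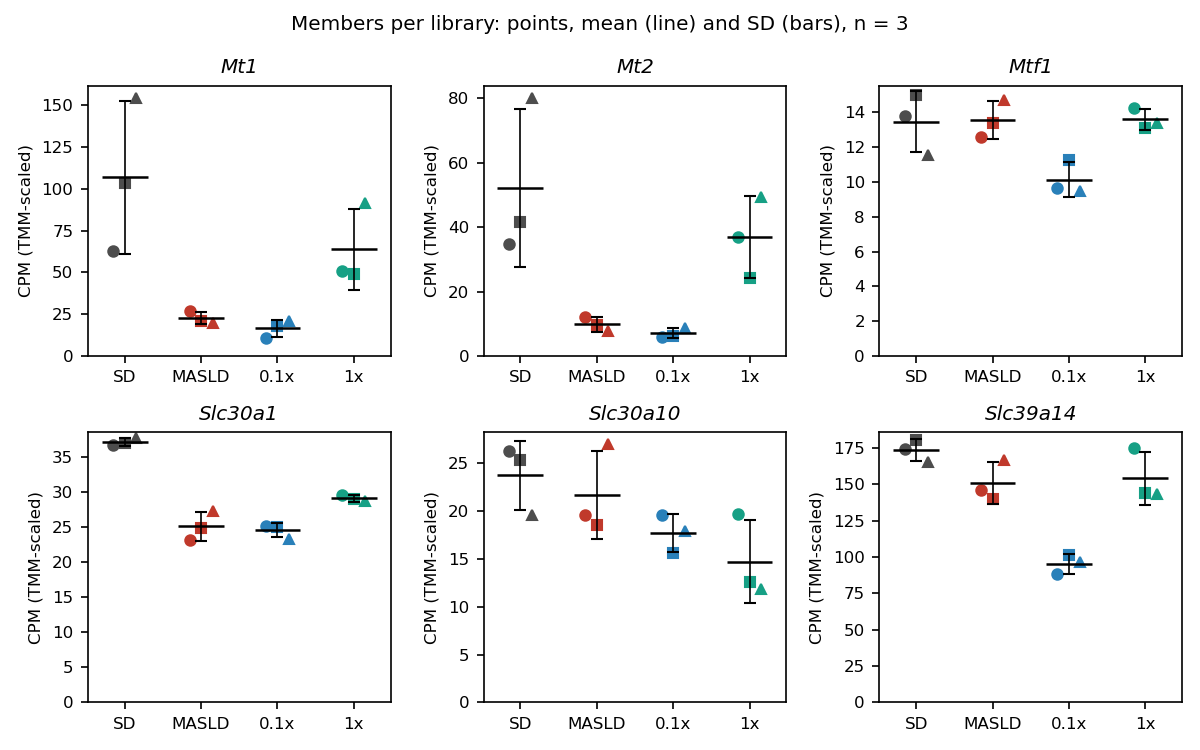
TMM-scaled CPM (vertical axes, from 0) of each of the 6 genes in every library, grouped along the horizontal axes as SD, MASLD, 0.1x and 1x Aza-TdC. Points are samples, lines are means and bars are standard deviations over 3 samples. Mt1 and Mt2 share an order of groups in which SD and 1x are high, Slc30a1 is high in SD, and Mtf1 and Slc39a14 are lowest at 0.1x.

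On the MASLD diet Mt1 fell by 2.24 ± 0.32 on the log2 scale (SE, n = 3 per group), 4.73-fold lower, with an adjusted p of 0.000124 in edgeR's quasi-likelihood F test with Benjamini-Hochberg adjustment over all genes tested. Mt2 fell by 2.40 ± 0.31, 5.29-fold lower (adjusted p = 5.86e-05). Means were 107 ± 45.8 and 22.6 ± 3.77 CPM for Mt1 and 52.1 ± 24.5 and 9.85 ± 2.28 CPM for Mt2 (standard deviation, n = 3, as for all CPM given with an error). With each library left out in turn the difference ranged from -2.51 to -1.88 for Mt1 and from -2.63 to -1.95 for Mt2, and the calls held in all 14 alternatives run for this comparison. Summed hepatocyte markers, given above, were lower on the MASLD diet in the same libraries, and 10 of the 11 tested were called lower, where 13.9% of all genes were. Their part in the fall was not tested.

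Aza-TdC at 0.1x left Mt1 and Mt2 at 16.5 ± 5.06 and 7.03 ± 1.55 CPM. Differences from MASLD were -0.45 ± 0.31 for Mt1 (adjusted p = 0.346) and -0.49 ± 0.31 for Mt2 (adjusted p = 0.309), and neither passed. With the trend on GC content and length removed they were -0.78 (adjusted p = 0.150) and -1.02 (adjusted p = 0.0795), and without a filter on low counts both passed, at -0.47 (adjusted p = 0.0190) and -0.51 (adjusted p = 0.0171). These last log2 changes were near those of the main fit, so leaving out the filter moved the p-values and hardly the differences. Nothing is read from these 2 calls. Against SD, the 0.1x group was different for Mt1 by a log2 change of -2.69 ± 0.33 (adjusted p = 5.94e-05) and Mt2 fell by 2.89 ± 0.32 (adjusted p = 2.81e-05).

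At 1x, Mt1 rose against MASLD by 1.496 ± 0.31 (log2), 2.82-fold, to 63.8 ± 24.2 CPM (adjusted p = 0.0203). Mt2 rose by 1.90 ± 0.31, 3.74-fold, to 36.9 ± 12.7 CPM (adjusted p = 0.00513). The call on Mt1 was lost without MASLD sample 3, 4 or 5 (adjusted p = 0.0611, 0.115 and 0.0577) and without 1x sample 5 (adjusted p = 0.0783), with log2 changes of 1.14 to 1.67 over all single omissions. The call on Mt2 held without any 1 library (adjusted p of 0.00393 to 0.0376). Of the 11 hepatocyte markers tested, 0 were called by edgeR and 0 by DESeq2 between 1x and MASLD, with 3 higher at an unadjusted p under 0.05. Only 3.11% of all genes were called by edgeR in this comparison, so the 0 does not show that the hepatocyte part was unchanged.

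The doses were also compared directly, which tests their difference. Mt1 was higher at 1x than at 0.1x by 1.95 ± 0.32 (log2), 3.86-fold (adjusted p = 0.00505), and Mt2 by 2.39 ± 0.32, 5.25-fold (adjusted p = 0.00178), and both calls held without any 1 library. By unadjusted p, Mt2 ranked 15th and Mt1 57th of all genes in this comparison. Against SD, the 1x group differed by -0.74 ± 0.30 for Mt1 (adjusted p = 0.100) and by -0.50 ± 0.29 for Mt2 (adjusted p = 0.254). Neither passed, which does not show that 1x livers had returned to the SD level. Without SD sample 3 or 1x sample 5, the lowest and highest of their groups, the Mt1 difference was -1.01 (adjusted p = 0.0224) and -1.10 (adjusted p = 0.0318).

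The ratio of Mt1 to Mt2 counts lay between 1.38 (1x sample 2) and 2.88 (0.1x sample 3) in the 12 libraries. Per kilobase of the longest annotated transcript the levels were close, at 98.4 and 102 CPM per kb in SD, although the annotated Mt1 transcript used is 1085 bases and that of Mt2 511, so the order of these levels rests on the models chosen. The sequence of neither gene is shared with another, since 0 stretches of 50 bases of their transcripts were found in other genes' transcripts. Mt3, the brain metallothionein, had 0 counts in all 12 libraries and Mt4, that of stratified epithelium, had 1.

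Mtf1 encodes the factor that senses zinc for the metallothioneins. Its counts were 13.8, 15.007 and 11.6 CPM in SD, 12.6, 13.4 and 14.7 CPM in MASLD, 9.64, 11.3 and 9.50 CPM at 0.1x, and 14.3, 13.1 and 13.4 CPM at 1x. The 3 samples at 0.1x were the lowest of the 12, and the other groups overlapped. The diet difference was 0.01 ± 0.13 (log2, adjusted p = 0.965) and that of 1x against MASLD 0.00 ± 0.13 (adjusted p = 0.994), so the transcript of the sensor did not pass in these comparisons, in which its targets Mt1 and Mt2 did.

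At 0.1x Mtf1 fell by 0.42 ± 0.13 against MASLD (adjusted p = 0.0451), and it was higher at 1x than at 0.1x by 0.42 ± 0.13 (adjusted p = 0.0431). Neither passed with the trend on GC content and length removed, where the differences were 0.02 (adjusted p = 0.952) and 0.04 (adjusted p = 0.892). Nor did either pass with only the 2 groups compared. The fall was lost too with another scaling of the libraries (RLE) and without the low-count filter. The fall was also lost without MASLD sample 3, 4 or 5 (adjusted p = 0.0785, 0.116 and 0.156) or 0.1x sample 1 or 4 (adjusted p = 0.106 and 0.104), and the difference between doses without 0.1x sample 1 or 4 (adjusted p = 0.104 and 0.102) or 1x sample 2, 4 or 5 (adjusted p = 0.168, 0.0588 and 0.0928). Against SD the 0.1x difference was -0.41 ± 0.13 (adjusted p = 0.0364), and it too was lost with the trend removed (-0.24, adjusted p = 0.191) and without SD sample 3 or 4 (adjusted p = 0.0807 and 0.151) or 0.1x sample 1 or 4 (adjusted p = 0.0992 in both). The gene 1110065P20Rik, at 14.8 to 29.9 CPM, overlaps Mtf1 on the other strand, and since the strand setting of the counting is not given, reads of the overlap cannot be assigned with certainty.

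Slc30a1 encodes ZnT1, the exporter of the plasma membrane and a target of MTF1. It stood at 36.7, 37.1 and 37.8 CPM in SD, within a narrow range. Its levels were 23.2, 24.9 and 27.3 CPM in MASLD, 25.2, 25.1 and 23.4 CPM at 0.1x, and 29.7, 29.0 and 28.7 CPM at 1x. SD lay above all other samples, 1x lay above MASLD and 0.1x, and these last groups overlapped.

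On the MASLD diet Slc30a1 fell by 0.57 ± 0.10 on the log2 scale, 1.48-fold lower (adjusted p = 0.000604), and the call held in all 14 alternatives. At 0.1x it was also below SD (-0.60 ± 0.10, adjusted p = 0.000667) and differed from MASLD by -0.03 ± 0.10 (adjusted p = 0.851). At 1x the difference from MASLD was 0.21 ± 0.10 (adjusted p = 0.274) and that from 0.1x 0.25 ± 0.10 (adjusted p = 0.102). Neither passed, although the samples did not overlap. At 1x it was below SD by a log2 change of -0.35 ± 0.10 (adjusted p = 0.0190), a call lost without SD sample 5 (adjusted p = 0.0635), 1x sample 4 (0.0555) or 1x sample 5 (0.0672), and with the composition trend removed the change was -0.54 (adjusted p = 0.000735). So 3 of the 6 members, Mt1, Mt2 and Slc30a1, were called lower on the MASLD diet and 0 higher (DESeq2 also called 0 higher, and 0 were higher at an unadjusted p under 0.05), where 13.9% of all genes tested were called lower.

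Slc30a10 encodes the exporter that clears manganese from liver cells. It gave 26.3, 25.3 and 19.6 CPM in SD, 19.6, 18.6 and 27.0 CPM in MASLD, 19.6, 15.7 and 18.0 CPM at 0.1x, and 19.7, 12.6 and 11.9 CPM at 1x. Group means descended in that order, from 23.8 ± 3.63 to 14.7 ± 4.32 CPM, and neighbouring groups overlapped. The diet difference was -0.13 ± 0.20 (adjusted p = 0.656), and those from MASLD were -0.29 ± 0.20 at 0.1x (adjusted p = 0.328) and -0.56 ± 0.20 at 1x (adjusted p = 0.150).

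One comparison passed for Slc30a10, in which 1x was below SD by a log2 change of -0.69 ± 0.20 (adjusted p = 0.0238) although 1x sample 2 overlapped with SD sample 5. The call was lost without SD sample 3 or 4 (adjusted p = 0.0684 and 0.0694) or 1x sample 4 or 5 (adjusted p = 0.0924 and 0.103). With the trend on GC content and length removed the difference was -0.89 (adjusted p = 0.00181). Between 1x and SD, 2 of the 6 members, Slc30a1 and Slc30a10, were called lower, where 9.84% of all genes were and 9.91% were called higher.

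Slc39a14 encodes ZIP14, through which hepatocytes take up zinc, manganese and iron that is not bound to transferrin. At 175, 180 and 165 CPM it was the most counted member in SD, and it stood at 146, 140 and 167 CPM in MASLD. At 0.1x it stood at 88.3, 102 and 96.4 CPM, below every other sample, and at 1x at 175, 144 and 143 CPM, within the range of SD and MASLD. Per kilobase of longest transcript, its level of 33.9 CPM per kb in SD was close to that of Slc39a1 (ZIP1, 33.8 CPM per kb).

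At 0.1x Slc39a14 fell by 0.66 ± 0.11 on the log2 scale against MASLD, 1.58-fold lower (adjusted p = 0.00699). The call held without any 1 library (adjusted p up to 0.0329) and was lost with the trend on GC content and length removed, where the difference was -0.34 (adjusted p = 0.0907). The 1x group was higher than 0.1x by 0.69 ± 0.11 (adjusted p = 0.00547), and this call held with the trend removed at 0.42 (adjusted p = 0.0443). Against SD the 0.1x group was lower (-0.86 ± 0.12, adjusted p = 0.000143). The diet difference of -0.20 ± 0.11 did not pass (adjusted p = 0.201) but did with the trend removed (-0.42, adjusted p = 0.00925), as did 1x against SD, from -0.17 ± 0.11 (adjusted p = 0.324) to -0.35 (adjusted p = 0.0355). At 1x the difference from MASLD was 0.03 ± 0.11 (adjusted p = 0.938).

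**Figure D2:**
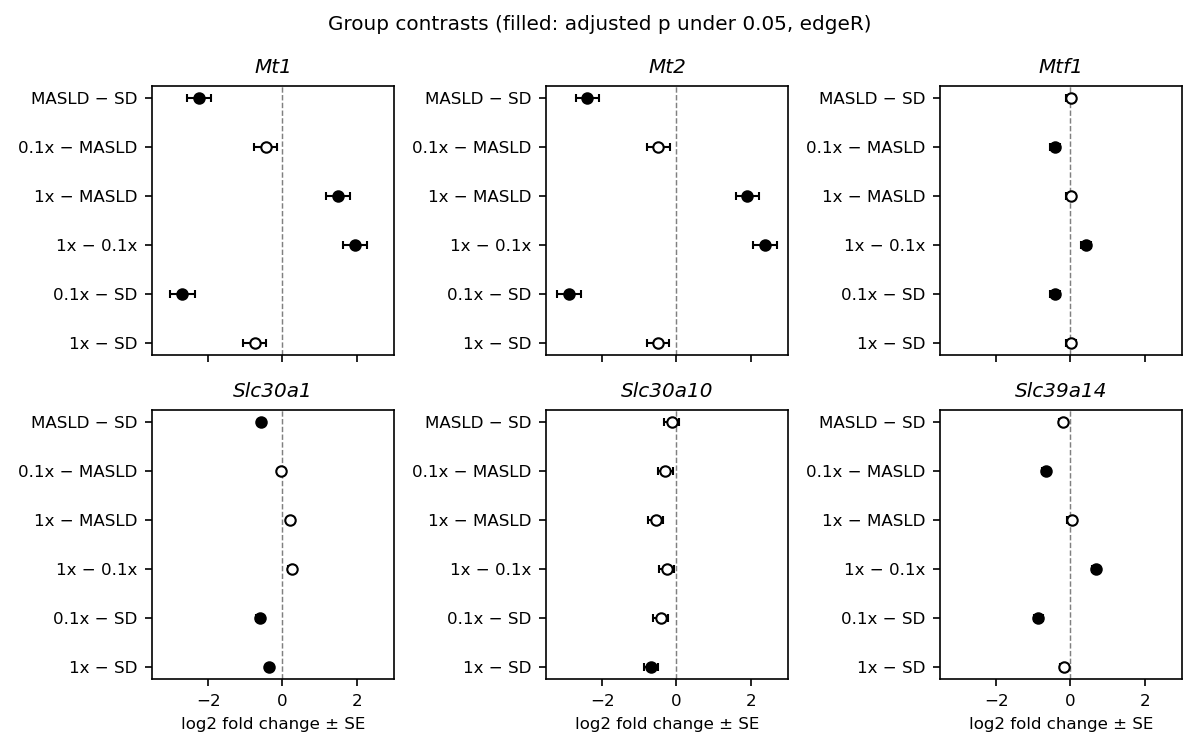
Log2 fold change (horizontal axes) with its SE for each of the 6 genes in the 6 comparisons named along the vertical axes, from edgeR's fit to all 12 libraries. Filled points passed an adjusted p of 0.05, and the dashed lines mark 0. Mt1 and Mt2 move in opposite directions with the diet and with 1x Aza-TdC. Slc39a14 and Mtf1 are called lower at 0.1x than in MASLD, calls lost with the trend on GC content and length removed.

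Counted over the members, 0.1x against MASLD gave 2 called lower (Mtf1 and Slc39a14), where 7.09% of all genes tested were called lower and 6.08% higher. The comparison of 1x with MASLD gave 2 called higher (Mt1 and Mt2), where 1.49% of all genes were and 1.62% were called lower. Between the doses, 4 of the 6 were called higher at 1x (Mt1, Mt2, Mtf1 and Slc39a14), where 7.13% of all genes were and 5.86% were called lower (13.0% in all), and between 0.1x and SD 5 of the 6 were called lower, where 10.9% of all genes were. Comparisons that share a group are not independent of each other, and the members were chosen with such differences known, so nothing is read from these shares.

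Across the 12 libraries, which share the diet and dose structure, log2 CPM of Mt1 and Mt2 had a Pearson r of 0.978. Slc30a1 followed Mt1 with r = 0.839, Slc39a14 followed Mtf1 with r = 0.890, and Slc30a10 had r = -0.04 with Mt1. Apart from each other, the protein-coding genes with the pattern most like the metallothioneins were Trib1 (r = 0.942 with Mt1 and 0.966 with Mt2), Dolpp1 (0.933 with Mt1) and Prodh (0.923 with Mt2). For Slc39a14 they were Adcy9 (0.977), Nr3c1, which encodes the glucocorticoid receptor (0.973), and Itch (0.955), and for Slc30a1 the urea cycle gene Cps1 (0.962), the aspartate aminotransferase gene Got1 (0.959) and Zfp110 (0.959). For Mtf1 they were Trim25 (0.964), Abca6 (0.943) and Rabgap1l (0.942), and for Slc30a10 Trim65 (0.894), Stra6l (0.878) and F8a (0.860). These coefficients are descriptions over 12 libraries with shared differences in composition.

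Of the other zinc transporters tested, the largest difference between diets was in Slc39a5 (ZIP5), which was nearly absent on the standard diet and present on the MASLD diet with or without the drug. It gave 0.239, 1.23 and 1.72 CPM in SD and 11.5, 16.9 and 9.01 CPM in MASLD. At 0.1x it gave 7.13, 15.003 and 8.58 CPM, and at 1x 6.33, 8.16 and 6.95 CPM. All 9 samples on the MASLD diet lay above the 3 on the standard diet.

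Slc39a5 rose on the MASLD diet by 3.52 ± 0.43 (log2), 11.5-fold (adjusted p = 3.47e-05), and was still above SD at 0.1x (3.24 ± 0.43, adjusted p = 0.000141) and at 1x (2.72 ± 0.43, adjusted p = 0.000541). Neither dose passed against MASLD (-0.29, adjusted p = 0.624, and -0.81, adjusted p = 0.264). ZIP5 is known from pancreas as well as liver and gut, and markers of exocrine pancreas were checked beside it. The 9 markers summed to 35.5 to 41.7 CPM in SD, 9.09 to 19.4 CPM in MASLD, 14.1 to 19.1 CPM at 0.1x and 6.24 to 10.9 CPM at 1x, and most of these sums was Cela1, which fell on the diet from 35.0, 36.4 and 41.5 CPM to 9.81, 12.5 and 9.06 CPM (-1.85 ± 0.21, adjusted p = 1.89e-05). Prss1, Prss2, Cpa1, Cpb1, Pnlip, Amy2a5 and Ctrb1 were at 0 in SD. Of the 4 markers tested, edgeR called Cela1 lower and Pnlip and Ctrb1 higher on the MASLD diet, while DESeq2 called 0 higher and 3 were higher at an unadjusted p under 0.05. Pnlip stood at 0, 2.15 and 0 CPM and Ctrb1 at 0, 1.18 and 0 CPM in the MASLD samples. The part of pancreatic RNA in the level of Slc39a5 was not tested.

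Slc39a4 (ZIP4, the importer through which the gut absorbs zinc) rose as well on the MASLD diet. It went from 21.1, 34.1 and 16.1 CPM in SD to 52.3, 73.3 and 51.6 CPM in MASLD, a log2 change of 1.31 ± 0.29 (adjusted p = 0.00372), and the call held in all 14 alternatives. At 0.1x it stood at 28.4, 21.4 and 49.5 CPM and at 1x at 32.5, 42.8 and 42.4 CPM, below all MASLD samples, but the differences of -0.84 (adjusted p = 0.0654) and -0.59 (adjusted p = 0.307) did not pass.

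In all, 5 of the 12 SLC39 genes tested rose on the MASLD diet and 1 fell, where 15.6% of all genes tested rose and 13.9% fell. Their median log2 change was 0.35 against 0.03 over all genes tested. Beside Slc39a5 and Slc39a4, the Golgi importer Slc39a9 rose by 0.48 ± 0.10 (adjusted p = 0.00287) and held in all 14 alternatives, at 0.26 (adjusted p = 0.0243) with the composition trend removed. Slc39a13 rose by 0.73 ± 0.19 (adjusted p = 0.0107), a call lost without SD sample 4 (adjusted p = 0.0509) or MASLD sample 3 (0.0541). Slc39a10 rose by 0.87 ± 0.30 (adjusted p = 0.0407), from 1.72 ± 0.803 to 3.15 ± 0.268 CPM, and the call was lost without SD sample 3 or 5 or any 1 MASLD sample (adjusted p of 0.0737 to 0.137) and with the composition trend removed (adjusted p = 0.0992). Slc39a8, the close relative of Slc39a14 that also carries manganese, fell by 0.34 ± 0.12 (adjusted p = 0.0444), a call lost without SD sample 4 or 5 or any 1 MASLD sample (adjusted p of 0.0698 to 0.172).

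Of the 8 SLC30 genes tested, 2 rose and 2 fell on the MASLD diet, where 15.6% and 13.9% of all genes did, with a median log2 change of -0.05. Nothing is read from counts this small. Beside Slc30a1, Slc30a3 fell by 1.46 ± 0.48 (adjusted p = 0.0335) from a level of only 1.13 ± 0.401 CPM, and that call did not hold once SD sample 4 or 5 or MASLD sample 4 or 5 was omitted (adjusted p of 0.0581 to 0.140). Slc30a4 rose by 0.40 ± 0.12 (adjusted p = 0.0207), not held once SD sample 3 or 5 or MASLD sample 3 or 5 was omitted (adjusted p of 0.0565 to 0.0772). Slc30a9 rose by 0.38 ± 0.12 (adjusted p = 0.0336), lost without SD sample 3 or 5 or any 1 MASLD sample (adjusted p of 0.0768 to 0.110). With the composition trend removed neither Slc30a4 (0.21, adjusted p = 0.164) nor Slc30a9 (0.15, adjusted p = 0.361) passed.

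**Figure D3:**
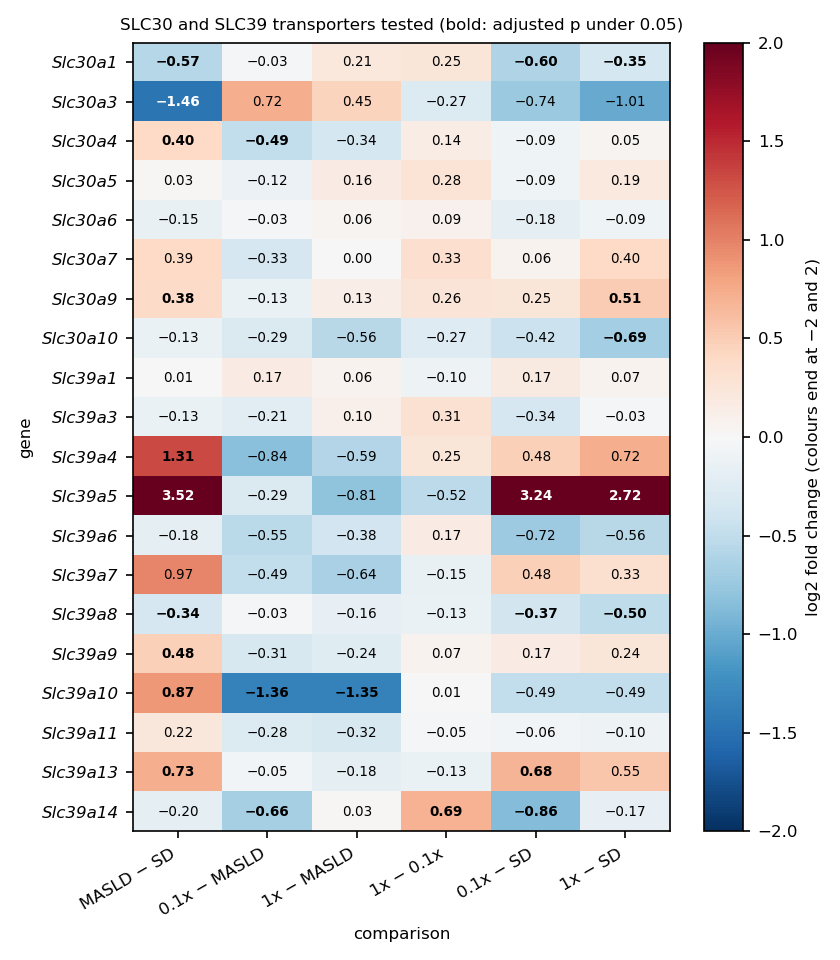
Log2 fold changes of the 20 SLC30 and SLC39 genes that passed the filter on low counts (rows) in the 6 comparisons (columns), with bold numbers where the adjusted p was under 0.05. Colours run from blue (lower) to red (higher) and end at -2 and 2. Slc39a5 stands out on the MASLD diet with or without the drug, and Slc39a10 is lower at both doses than in MASLD.

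With Aza-TdC, Slc39a10, itself a gene that MTF1 is known to repress, was lower than in MASLD at both doses. The log2 change was -1.36 ± 0.31 at 0.1x (adjusted p = 0.0150) and -1.35 ± 0.30 at 1x (adjusted p = 0.0266), with means of 1.23 ± 0.171 and 1.23 ± 0.341 CPM. The first call was lost without MASLD sample 4 (adjusted p = 0.0595) and with the composition trend removed (-1.13, adjusted p = 0.0502), and the second without MASLD sample 3 or 4 or 1x sample 4 or 5 (adjusted p of 0.0868 to 0.134). At 0.1x, Slc39a10 and Slc39a14 were the 2 of 12 SLC39 genes tested that fell, where 7.09% of all genes did. Slc30a4 was the 1 of 8 SLC30 genes tested that fell (-0.49 ± 0.12, adjusted p = 0.0197). The call on Slc30a4 was lost without any 1 MASLD sample or 0.1x sample 1 (adjusted p of 0.0505 to 0.0744) and with the composition trend removed (-0.31, adjusted p = 0.127). At 1x against MASLD edgeR and DESeq2 each called 0 of the 8 SLC30 genes, with 1 higher and 2 lower at an unadjusted p under 0.05. In this comparison edgeR called 3.11% of all genes.

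MTF1 has further known targets. Those listed include Slc39a10, which it is known to repress, so calls in both directions are not read as a split. Of 10 listed genes tested, Mt1, Mt2 and both exporters among them, 2 rose and 4 fell on the MASLD diet, where 29.5% of all genes passed in either direction. At 1x against MASLD 2 rose, Mt1 and Mt2, and 2 fell, Slc39a10 and Gclc, where 3.11% of all genes passed. Gclc, the catalytic subunit of glutathione synthesis and a target of NRF2 too, averaged 212 ± 17.5 CPM on the standard diet and 329 ± 31.1 on the MASLD diet, then 356 ± 43.1 with the lower and 231 ± 13.2 with the higher dose. It rose with the diet by 0.64 ± 0.12 (adjusted p = 0.00132) and was lower at 1x than in MASLD by a log2 change of -0.51 ± 0.12 (adjusted p = 0.0362), a call lost without MASLD sample 3 or 4 or any 1 of the 1x samples (adjusted p of 0.0830 to 0.188). Its groups followed the opposite order to Mt1 and Mt2.

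Among carriers of manganese and iron, 8 of which were tested, 3 rose and 1 fell on the MASLD diet, where 15.6% of all genes tested rose and 13.9% fell, and with the composition trend removed 2 rose and 3 fell. Slc11a2 (DMT1) rose by 0.81 ± 0.15 (adjusted p = 0.000855), from 16.05 ± 2.82 to 28.1 ± 1.51 CPM, and Slc11a1, the metal carrier of phagosomes, by 1.23 (adjusted p = 0.00388). Both calls held in all 14 alternatives. Slc11a1 is expressed by macrophages, and in the same comparison 6 of 8 markers of lipid-associated macrophages (median log2 change 2.08) and 3 of 8 Kupffer cell markers were called higher. The summed level of the first list was 273 to 320 CPM in SD and 395 to 548 CPM in MASLD, and that of the second 233 to 510 and 329 to 408 CPM. Their part in the rise was not tested.

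Of 18 zinc enzymes of the liver tested, 8 were lower and 2 higher on the MASLD diet (median log2 change -0.30), beside 13.9% lower and 15.6% higher among all genes. With the composition trend removed 6 were lower and 3 higher. The carbonic anhydrase Car14 fell by 2.71 ± 0.28 (adjusted p = 9.26e-06), from 83.9 ± 11.3 to 12.9 ± 2.92 CPM, and the alcohol dehydrogenase Adh5 by 0.90 ± 0.10 (adjusted p = 1.67e-05). Car2 rose by 1.53 ± 0.23 (adjusted p = 0.000246). Of the 18, 0 were called between 1x and MASLD by edgeR, where 3.11% of all genes were. There 4 were higher at an unadjusted p under 0.05 and 1 was called higher by DESeq2. Car14 stood at 10.2 ± 4.58 CPM at 1x. The hepatocyte markers given above were lower with the diet in the same libraries, and their part in the falls was not tested.

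Glucocorticoid-responsive genes were examined because the metallothioneins are among the genes that these hormones induce. Of 15 tested, 9 fell and 1 rose on the MASLD diet (median log2 change -0.55), where 13.9% of all genes fell and 15.6% rose. At 0.1x against MASLD 3 fell and 1 rose, where 7.09% and 6.08% of all genes did, and with the composition trend removed 0 were called in either direction (with 7 lower and 2 higher at an unadjusted p under 0.05 in edgeR before removal, and 4 and 1 called by DESeq2). At 1x against MASLD 5 rose (median 0.36), where 1.49% of all genes did, and 5 with the trend removed. Between the doses 7 were higher at 1x (median 0.66), where 7.13% of all genes were, and 4 with the trend removed. Tsc22d3 (GILZ), a classic target of the receptor, stood at 63.1, 106 and 76.8 CPM in SD, 36.5, 36.2 and 42.1 CPM in MASLD, 40.6, 37.2 and 33.5 CPM at 0.1x, and 75.9, 54.2 and 63.0 CPM at 1x. Its SD and 1x samples lay above all MASLD and 0.1x samples, the same separation as for Mt1 and Mt2.

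Tsc22d3 fell on the diet by 1.10 ± 0.17 (adjusted p = 0.000283) and rose at 1x against MASLD by 0.75 ± 0.17 (adjusted p = 0.0290). The rise was lost without MASLD sample 3 or 4 or 1x sample 2 or 5 (adjusted p of 0.0695 to 0.151). Ddit4, a hormone-induced inhibitor of mTOR signalling, was at 5.39, 6.17 and 5.90 CPM in SD, 5.09, 5.28 and 3.95 CPM in MASLD, 3.38, 2.003 and 3.90 CPM at 0.1x and 12.7, 8.42 and 10.1 CPM at 1x, so that all 1x samples lay above all others. It rose against MASLD by 1.12 ± 0.22 (adjusted p = 0.0133), lost without MASLD sample 3 or 4 or 1x sample 2 (adjusted p of 0.0509 to 0.0636), and against 0.1x by 1.75 ± 0.22 (adjusted p = 0.00160), which held without any 1 library. Per1, the clock gene with a glucocorticoid response element, was 0.84 ± 0.13 higher (log2) at 1x than at 0.1x (adjusted p = 0.00417), and 0.54 higher with the composition trend removed (adjusted p = 0.0110). Hsd11b1, the enzyme that regenerates active glucocorticoid in liver, fell on the diet by 1.45 ± 0.16 (adjusted p = 1.14e-05) and was not called between 1x and MASLD (0.36, adjusted p = 0.247).

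**Figure D4:**
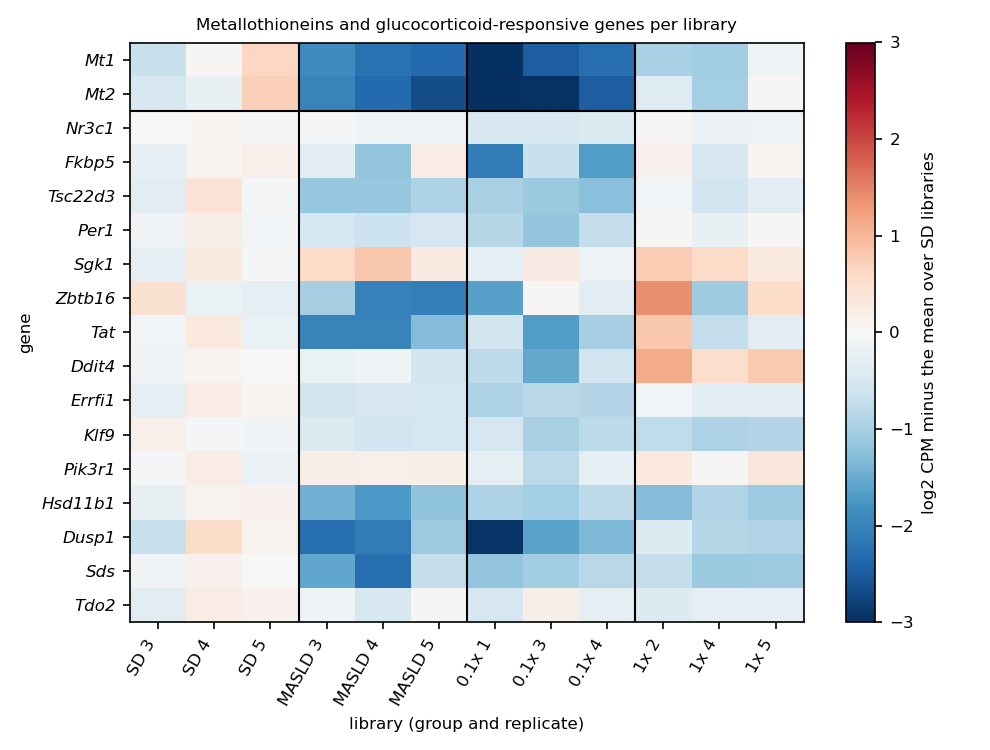
Log2 CPM of Mt1, Mt2 and 15 glucocorticoid-responsive genes (rows) in each of the 12 libraries (columns), each minus the mean over the 3 SD libraries. Blue is lower and red is higher than SD, and colours end at -3 and 3. Tsc22d3 and Per1 are lower in MASLD and 0.1x libraries than in 1x libraries, as Mt1 and Mt2 are. Of the 15 genes, 5 were called higher at 1x than in MASLD and 10 were not called. Hsd11b1 and Klf9 stay low on the MASLD diet in all 9 libraries. Sgk1 was the 1 gene called higher on the MASLD diet by edgeR (0.55, adjusted p = 0.0445), a call lost with the composition trend removed (adjusted p = 0.0623).

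Nr3c1, the receptor itself, shared the pattern of Slc39a14, with 51.8 ± 2.26 CPM on the standard diet, 48.3 ± 1.06 on the MASLD diet, and 37.8 ± 0.933 and 48.4 ± 3.69 with the lower and higher dose. It fell at 0.1x against MASLD by 0.35 ± 0.10 (adjusted p = 0.0280), lost without any 1 MASLD sample or 0.1x sample 1 (adjusted p of 0.0674 to 0.0948) and with the composition trend removed (-0.10, adjusted p = 0.571). Acute phase genes, which interleukin 6 induces together with metallothioneins, split in direction. Of 26 tested, 11 fell and 3 rose on the MASLD diet, where 13.9% and 15.6% of all genes did, and with the composition trend removed 11 fell and 5 rose. At 1x against MASLD edgeR called 2 lower, where 1.62% of all genes were, and 0 higher, with 8 higher and 6 lower at an unadjusted p under 0.05, a median log2 change of 0.22, and 4 higher and 3 lower called by DESeq2. With the trend removed 3 were higher and 2 lower. Between the doses 5 were higher at 1x, where 7.13% of all genes were. Itih3 fell on the diet by 1.31 (adjusted p = 4.15e-05) while Cd14 rose by 1.76 (adjusted p = 0.000485). Whether the hormone, the cytokine or zinc itself moved with the metallothioneins was not measured here.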

How the data were processed

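The 12 columns of the deposited table hold whole-number counts per gene ID. Reads of 150 bp in pairs from stranded polyA libraries were aligned by the authors with STAR 2.7.3a to mm10, per the submitters' processing notes. The sources used here do not name the counter, its strand setting or its annotation. For 1 column the title of the sample (replicate 5) was followed over its library name (8). Symbols, positions and lengths come from GENCODE release 21 for mouse.

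CPM, fold changes and p-values are not the authors' and were derived from these counts. edgeR 4.0.16 (R 4.3.3) fitted all 12 libraries after filterByExpr and TMM, with 1 coefficient per group and two-sided quasi-likelihood F tests. Benjamini-Hochberg adjustment ran over the 13866 genes tested, with calls under 0.05. An SE is the absolute log2 fold change over the root of F. Replicate libraries differed by more than counting noise. Alternatives were DESeq2 1.42.0, other scaling and filters, replicate blocks, a spline of 4 degrees of freedom on GC content and length, and omission of each library.

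The members, gene lists and tests were chosen with earlier results of these data known. Named were the 6 members, SLC30 and SLC39 genes, up to 2 called genes per list, comparison and direction with the smallest adjusted p, and the 3 genes most correlated with each member.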

Additional observations from a re-analysis of the deposited data

How the results depend on the processing

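The calls on Mt1, Mt2 and Slc30a1 on the MASLD diet, and on these 3 and Slc39a14 at 0.1x against SD, kept their direction and threshold under every alternative run. Genes near 1 CPM, such as Slc30a3 and Slc39a10, rest on few counts.

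In a fit with replicate blocks, samples of the same number share a term, so a library whose number occurs in no other group adds nothing to a comparison. This holds for 0.1x sample 1 and 1x sample 2. By library names it also holds for 1x sample 5, and the 1x group then rests on its sample 4 alone. Fits with the blocks at either dose thus use fewer libraries. Counts of genes called moved by over 1.5 times as follows. For 0.1x against MASLD (1826 in the main analysis) they were 485 with the GC and length trend removed, of which 306 were higher and 179 lower against 843 and 983, 33 with a replicate block by titles and 110 with one by library names. For 1x against MASLD (431) they were 825 with DESeq2, 1131 without a low-count filter, 1013 with only the 2 groups compared, and 53 and 26 with the blocks. Between the doses (1802) they were 744 with only the 2 groups, 664 with the trend removed, and 0 and 1 with the blocks in edgeR, where 1639 and 795 had an unadjusted p under 0.05 and DESeq2 without a block called 2464. For 0.1x against SD (2872) they were 1660 with only the 2 groups, and 1379 and 1160 with the blocks, and for 1x against SD (2739) 1122 and 249 with the blocks. With each library left out, counts ranged from 2654 to 3850 for the diet, from 382 to 1599 for 0.1x and from 83 to 396 for 1x against MASLD, from 210 to 1844 between the doses, and from 1790 to 2619 and from 1699 to 2559 against SD.

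Replicate numbers are shared between groups, and the labels do not say what they mark. Same-numbered deviations correlated at -0.196 to 0.0774 in 12 pairs, 0 of them over 0.1, and the other 42 pairs at -0.166 to 0.194. Such values cannot show whether a number marks a shared litter or batch. The blocks also rest on fewer libraries, as said above. With the replicate block by titles and by library names, adjusted p for 1x against MASLD was 0.0883 and 0.363 for Mt1 and 0.0816 and 0.345 for Mt2, and between the doses 0.236 and 0.794 for Mt1, 0.199 and 0.725 for Mt2, 0.308 and 0.860 for Slc39a14 and 0.485 and 0.940 for Mtf1. At 0.1x against MASLD it was 0.0663 and 0.0774 for Slc39a14 and 0.205 and 0.236 for Mtf1, at 0.1x against SD 0.202 and 0.244 for Mtf1, and at 1x against SD 0.123 and 0.574 for Slc30a1, while Slc30a10 was lost only by library names (0.195). With the titles block 0 of the 15 glucocorticoid-responsive genes were called at either dose against MASLD or between the doses, and 0 copper genes higher at 0.1x. Without the low-count filter, calls also appeared for Mt1 and Mt2 at 1x against SD (adjusted p = 1.05e-05 and 0.00880) and for Slc30a10 at 1x against MASLD (0.00712) and 0.1x against SD (0.0294), and the call on Slc30a1 at 1x against SD was lost (0.0939). In the main fit adjusted p for Mt1 and Mt2 at 1x against SD was 0.100 and 0.254. Why leaving out the filter lowered it so far was not tested, and these added calls are not read as differences.

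Reversals of sign were seen only in Mtf1, Slc30a1, Slc30a10 and Slc39a14, and in all but 1 the main difference had not passed. With the trend removed, the log2 change was -0.26 for Mtf1 on the diet and -0.20 against SD at 1x, and at 0.1x against MASLD it was 0.019 for Mtf1, the 1 called reversal, 0.21 for Slc30a1 and 0.016 for Slc30a10. Under DESeq2 and RLE factors Mtf1 gave -0.011 and -0.012 on the diet and -0.0024 and -0.0029 at 1x against SD, and the filter at 1 CPM gave -0.011 at 1x against MASLD. The blocks gave -0.023 and -0.063 for Mtf1 and -0.071 and -0.027 for Slc39a14 at 1x against MASLD, and -0.010 and -0.049 for Mtf1 against SD. With each library left out, Mtf1 ranged from -0.091 to 0.093 on the diet, from -0.043 to 0.070 at 1x against MASLD and from -0.084 to 0.10 against SD, Slc30a1 from -0.088 to 0.032 at 0.1x and Slc39a14 from -0.070 to 0.11 at 1x against MASLD. The cause was not tested.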

Other observations

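Copper is the other metal that metallothioneins bind, and 14 genes of copper handling were tested. On the MASLD diet 4 fell and 1 rose, where 13.9% and 15.6% of all genes did. At 0.1x against MASLD 4 rose and 2 fell, where 6.08% and 7.09% of all genes did, and with the trend on GC content and length removed 2 rose and 2 fell. Between the doses 3 were higher and 3 lower at 1x, where 7.13% and 5.86% of all genes were, and 2 and 2 with the trend removed. Ccs, the copper chaperone of superoxide dismutase, fell on the diet by 0.63 ± 0.10 (adjusted p = 0.000425) and rose at 0.1x by 0.53 ± 0.10 (adjusted p = 0.0110). With the trend removed the fall was by 0.41 (adjusted p = 0.00191), and the rise at 0.1x was 0.24 with an adjusted p of 0.114. Sod1, its client, fell by 0.61 on the diet (adjusted p = 0.00340).

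The copper pump Atp7a averaged 1.13 ± 0.158 CPM on the standard diet and 2.40 ± 0.332 on the MASLD diet, and 0.754 ± 0.236 and 1.85 ± 0.680 with the lower and higher dose. Its change at 0.1x against MASLD was -1.66 ± 0.32 (adjusted p = 0.0103), and it held without any 1 library. Steap4, a metalloreductase, fell at 0.1x by 1.11 ± 0.16 (adjusted p = 0.00339), from 122 ± 4.53 to 56.5 ± 8.46 CPM, and that call held in all 14 alternatives. Sco2, a copper chaperone of mitochondria, was lower at 1x than at 0.1x by a log2 change of -1.01 ± 0.16 (adjusted p = 0.00417).

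Targets of NRF2, which also guards against metal stress, were tested as well. Of 17 tested, 12 rose and 1 fell on the MASLD diet, where 15.6% and 13.9% of all genes did, and 5 fell at 1x against MASLD, where 1.62% of all genes did. Srxn1 rose on the diet by 1.78 ± 0.14 (adjusted p = 1.03e-06). Gstm3 fell at 1x by 1.99 ± 0.21 (adjusted p = 0.000212), from 152 ± 39.9 to 38.2 ± 7.44 CPM, a call that held in all 14 alternatives.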
